A study of Mus musculus with 4 samples.

Results

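The collagen genes were taken as every gene symbol of the form Col, a number, a, a number in the 2 deposited count matrices, which gave 44 genes of the 31053 measured. Collagens are secreted proteins in which 3 chains wind into a triple helix. The fibrillar types make the tensile fibres of connective tissue, the type IV network makes the sheet under epithelia and around vessels, type VI forms beaded filaments around cells, and fibril-associated types sit on the surface of the fibres. In the ovary the stroma, the theca, the follicle wall and the vessels all carry collagen, and macrophages are known to take up and degrade it.

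The cells came from the ovaries of virgin wild-type C57BL/6J female mice of 2 ages, labelled 3 months and 15 months, and were sorted as CD45+ CD11b+, that is, for a surface protein of blood-derived cells and for an integrin chain of myeloid cells. Each age was 1 library of 3′ single-cell RNA-seq, in which 3 hashtag pools (suspensions marked with a barcoded antibody before mixing) served as the replicates. An age difference below is thus also a difference between libraries, the 2 cannot be told apart, and p-values measure only the spread between pools of a library. The labels gave differing accounts of the animals: the series text gave 2 mice for each pool, whereas the protocol gave harvest at 2 to 3 and at 14 to 17 months, 6 young mice, and 5 old mice with 1 pool from a single mouse. The ovaries had been dissociated with collagenase IV and DNase I, so the values are of transcripts in freed cells and not of collagen in the tissue.

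The 3-month library held 3135 barcodes with 27277073 UMIs (unique molecular identifiers, 1 for each captured transcript) and the 15-month library 4939 barcodes with 45060166 UMIs. Only 3 barcode sequences occurred in both. Kept were barcodes with 1 hashtag, 500 or more genes, 1000 or more gene UMIs and no more than 10% of UMIs from mitochondrial genes, 5670 in all and 449 to 2205 in a pool. Transcripts of 6 red-cell genes moved with the library: their sum in myeloid-like cells ran from 3452 to 20856 CPM (defined below) in the 3-month pools and from 27.3 to 299.9 in the 15-month pools. Levels below are CPM, the UMIs of a gene for every 1000000 UMIs of the same cells. In this 3′ assay a captured transcript gives 1 UMI whatever its length, so levels were not divided by length. Whether different genes were captured equally well was not tested, so an order of genes below is an order of UMIs.

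Despite the sort, clusters led by genes of non-immune cells were present, and some of their cells carried immune transcripts as well. Clusters were named from marker genes, after the collagen genes had been taken out of the genes used for clustering. Stromal-like cells (101) carried UMIs of 10 of 10 stromal markers, 9 of them in at least 20% of cells, and had a UMI of Ptprc, the gene of CD45, in 13.9% of cells. Endothelial-like cells (51) carried 10 of 10 endothelial markers, steroidogenic-like cells (24) carried 8 of 10, with Akr1c18 and Insl3 at 0, and myeloid-like cells (4547) carried 10 of 10. Mural-like cells (36), of the vessel wall, also carried all 10 endothelial markers. A further 96 cells led by Cyp17a1 and Dcn had a Ptprc UMI in 97.9% of cells and a median of 9.5 of 10 myeloid markers, and these were left unnamed as mixed.

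Of the 44 collagen genes, 41 had at least 1 UMI in the kept cells, and Col2a1 and Col9a1 of cartilage and Col10a1 of growth-plate cartilage had none. Stromal-like cells had UMIs of 34 collagen genes, endothelial-like cells of 16, steroidogenic-like cells of 22 and myeloid-like cells of 35. The classes held 101, 51, 24 and 4547 cells, so these counts were made at unlike depth. Genes with a mean of at least 10 CPM numbered 24, 7, 14 and 1 in the same order. The mean level over the 6 pools was at least 50 CPM for 15 genes in stromal-like cells. All collagen genes together made 6227 ± 1119 CPM in stromal-like cells (SD, n = 6 pools), and the 3 highest, Col1a2, Col3a1 and Col4a1, made 55.6% of them. In endothelial-like cells Col4a1, Col4a2 and Col18a1 made 94.0%. These levels are a description, since the classes come from clusters of the same cells.

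**Figure D1:**
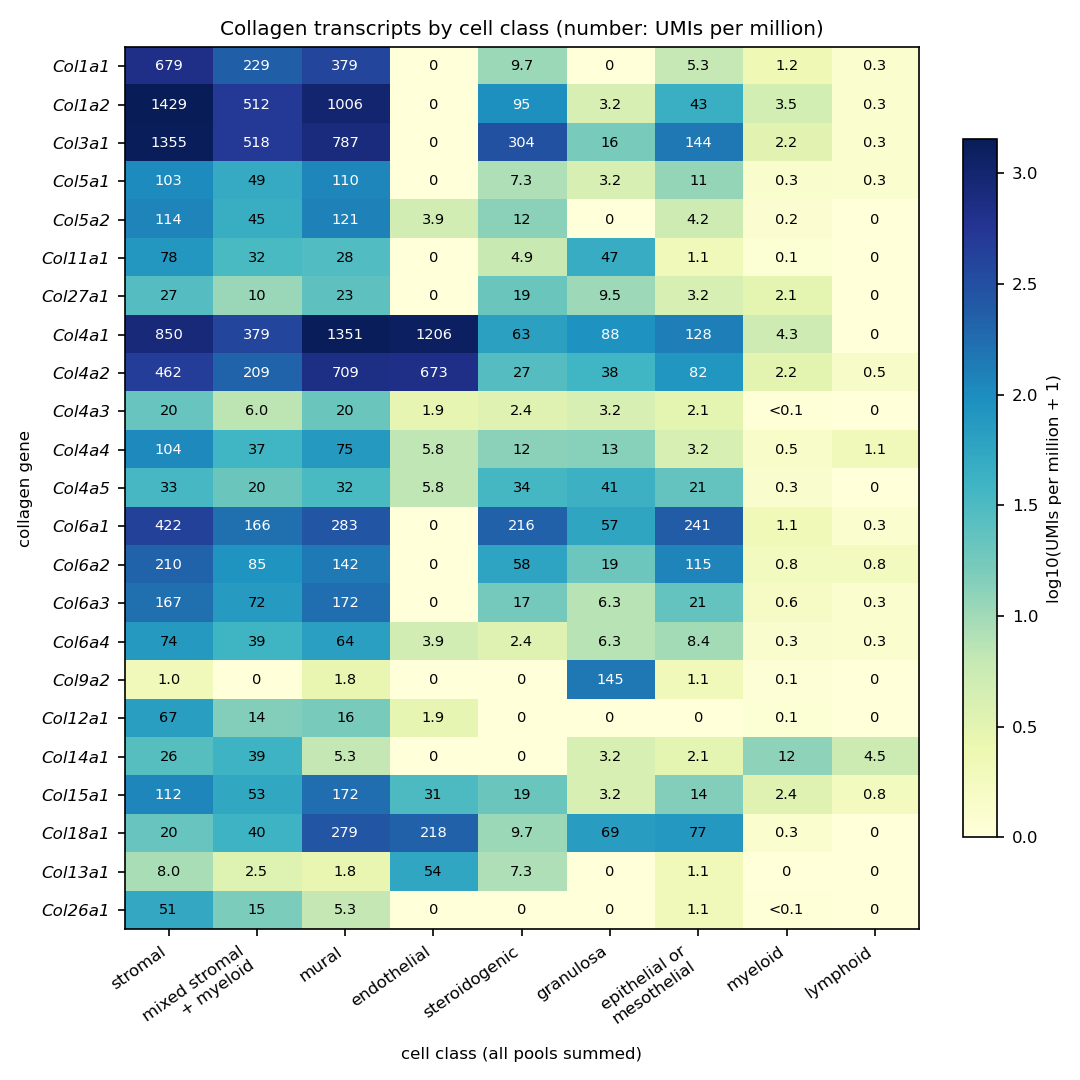
Rows are collagen genes, columns are cell classes with all pools summed, numbers are CPM and the colour is log10 of that value plus 1. The fibrillar chain Col1a2 (1429 in stromal-like cells) was at 0 in endothelial-like cells, where Col5a2 was not at 0 and Col4a1 reached 1206. Col14a1 is the collagen gene with the highest level in the myeloid column.

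Single barcodes showed the order of classes of the mean family level, which is not that of the gene counts above. The family level was 6227 CPM in stromal-like, 2272 in endothelial-like, 1179 in steroidogenic-like and 36.0 in myeloid-like cells (6, 5, 3 and 6 pools). A UMI of any collagen gene was present in 101 of 101 stromal-like cells, 48 of 51 endothelial-like cells (94.1%), 22 of 24 steroidogenic-like cells (91.7%) and 803 of 4547 myeloid-like cells (17.7%). In NK- or T-like cells, which should lack collagen transcripts, it was present in 21 of 482 (4.36%) and in B-like cells in 21 of 248 (8.47%). The median depth was 7626 UMIs in stromal-like, 6913 in endothelial-like, 16006 in steroidogenic-like, 7950 in myeloid-like, 3643.5 in NK- or T-like and 6227 in B-like cells. After thinning every cell to 1000 UMIs the shares were 94.1% in stromal-like, 68.6% in endothelial-like, 37.5% in steroidogenic-like, 2.79% in myeloid-like, 2.07% in NK- or T-like and 0% in B-like cells. Within the stromal-like cells the collagen level of a barcode ran from 358 to 23947 CPM with a median of 5290, so all of them carried collagen but in widely differing amounts.

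Among the fibrillar chains, Col1a1 and Col1a2 encode the chains of type I collagen, the main collagen of connective tissue, and lie in GRCm38 at chr11:94936224-94953042 and chr6:4504814-4541544, both on the plus strand. In stromal-like cells Col1a1 was at 443, 591 and 578 CPM in the 3-month pools and at 706, 691 and 879 in the 15-month pools. Every 15-month pool lay above every 3-month pool. The log2 difference, 15 over 3 months, was 0.55 ± 0.20 (SE, 95% interval 0.10 to 1.00), with an adjusted p of 0.474 in edgeR's quasi-likelihood test over 2478 genes. Col1a2 was at 1067, 1692 and 1583 and at 1839, 1110 and 1220 CPM in the same order. Its pools overlapped between the ages, and its log2 difference was -0.02 ± 0.21 with an interval of -0.49 to 0.46.

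Col3a1, the single chain of type III collagen of pliable tissues and vessels (chr1:45311538-45349706), was at 898, 1402 and 1061 CPM in the 3-month stromal-like pools and at 1046, 1236 and 1929 in the 15-month pools. The ages overlapped, with a log2 difference of 0.39 ± 0.24 (adjusted p = 0.682, edgeR). The chains of type V collagen, which is built into type I fibres and limits their width, were lower. In the same order Col5a1 was at 65.1, 100.5 and 103 and at 69.7, 69.8 and 151 CPM. Col5a2 was at 78.1, 106 and 68.4 and at 52.3, 202 and 151, with the 15-month pools on both sides of the 3-month pools. Col11a1, a chain of the related type XI collagen, was at 78.1, 59.1 and 120 and at 78.4, 112 and 34.9. For these 3, all with overlapping ages, the log2 differences were 0.21 ± 0.37, 0.80 ± 0.44 and -0.29 ± 0.46, and each interval included 0.

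In endothelial-like cells no UMI of Col1a1, Col1a2, Col3a1 or Col5a1 was found among the 518879 UMIs of the class, which allows a level of up to 5.78 CPM for each (counting error only). Steroidogenic-like cells, which turn cholesterol into steroid hormones, had Col3a1 as their highest collagen. Its level over the class was 304 CPM, and in the 3 pools that had at least 5 of these cells it was 443, 410 and 363, the last at 15 months. Col1a2 was found there in only 3 of 24 cells (12.5%) and Col3a1 in 15 of 24 (62.5%). The 24 cells carried UMIs of 6 of 10 stromal markers, with Pdgfrb, Tcf21, Dpt and Mfap4 at 0, and the part of stromal RNA in these values was not tested.

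The type IV chains build the network of the basement membrane, and the genes of each chain pair lie head to head. Col4a1 (chr8:11198423-11312826, minus strand) and Col4a2 (chr8:11312805-11449287, plus strand) had annotated starts that overlap by 22 bases, shown in capitals here because both genes were high in the same classes. The reference sequence is the plus strand of chr8:11312801-11312830 in GRCm38.p6:
Col4a1/Col4a2 starts: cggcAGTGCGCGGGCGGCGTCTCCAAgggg
Col4a4 (minus strand) and Col4a3 (plus strand) were separated by 71 bases, printed as the minus strand of chr1:82586850-82586920:
between Col4a4 and Col4a3: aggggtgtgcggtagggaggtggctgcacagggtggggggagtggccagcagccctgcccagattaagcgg

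The starts of Col4a6 and Col4a5 were 1308 bases apart. RefSeq promoter windows (GRCm38.p6) were at hand for 35 of the 44 genes. In the 250 bases before the start, CCAAT or its reverse ATTGG was present in 13 of the 38 windows of collagen genes and in 33.8% of all 32851 windows. GGGCGG or its reverse CCGCCC was present in 22 of 38 and in 32.7% of all windows. Both searches covered both strands. The letters of CCAAT were present in the windows of Col4a1 and of Col4a2.

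Col4a1 was the highest collagen of endothelial-like cells, at 1783 and 1514 CPM in the 2 pools with at least 5 cells at 3 months and at 1018, 1103 and 953 at 15 months, and the 3-month pool with 4 cells was at 1299. Each 15-month pool lay below each 3-month pool. The log2 difference was -0.62 ± 0.22 (interval -1.11 to -0.13), with an adjusted p of 0.416 in edgeR's test over 1708 genes. Col4a2 was at 708 and 771 and at 535, 660 and 523, with the small pool at 1209. Here too the ages did not overlap, and the log2 difference was -0.31 ± 0.26 (adjusted p = 0.730). Of the 3 collagen genes tested in these cells 2 had every 15-month pool below every 3-month pool, as did 16.7% of all genes tested.

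In stromal-like cells Col4a1 was at 482, 1124 and 1142 CPM at 3 months and at 784, 314 and 844 at 15 months. The lowest pool was 1 of the 15-month pools and the ages overlapped. Col4a2 was at 325, 544 and 625 and at 270, 175 and 546. Their log2 differences were -0.46 ± 0.37 and -0.52 ± 0.38, with intervals on both sides of 0. Col4a4, whose product joins those of Col4a3 and Col4a5 in kidney and other specialised membranes, was at 156, 195 and 51.3 CPM at 3 months and at 26.1, 112 and 108 at 15 months, again with overlap (-0.47 ± 0.56). Its partner Col4a3 had only 20 UMIs in the class, a level of 20.1 CPM over all pools.

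Col15a1 and Col18a1 encode the multiplexins, collagens of the basement membrane zone whose ends release the fragments restin and endostatin. Col18a1 was highest in the classes of vessel cells, at 218 CPM over the endothelial-like cells and at 279 over the mural-like cells. It was not limited to them, at 76.9 over the cells named epithelial or mesothelial and at 69.4 over the granulosa-like cells. Over the stromal-like cells Col18a1 stood at 20.1. In endothelial-like pools it was at 56.6 and 362 at 3 months and at 241, 222 and 69.8 at 15 months. These overlapped widely, and the log2 difference was -0.41 ± 0.61. Without 3-month pool 3 the sign turned, to 1.81. Col15a1 in stromal-like cells was at 52.1, 154 and 94.1 CPM and at 26.1, 27.9 and 205, with the highest pool and both lowest pools at 15 months and a log2 difference of -0.00 ± 0.90. Col13a1, a transmembrane collagen of cell adhesion sites, reached 54.0 CPM over the endothelial-like class, where it was at 56.6 and 105 in the entered 3-month pools and at 138, 28.3 and 11.6 in the 15-month pools, and 8.03 over the stromal-like class.

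The beaded-filament chains Col6a1, Col6a2 and Col6a3 assemble into 1 protein, type VI collagen. In stromal-like cells Col6a1 was at 325, 544 and 321 CPM at 3 months and at 401, 356 and 507 at 15 months. Col6a2 was at 91.1, 207 and 171 and at 218, 237 and 263, and Col6a3 at 39.0, 148 and 180 and at 200, 196 and 174. Only Col6a2 had every 15-month pool above every 3-month pool. The log2 differences were 0.15 ± 0.27, 0.62 ± 0.28 (adjusted p = 0.554) and 0.54 ± 0.36. Col6a4, an alternative chain, was at 65.1, 82.8 and 81.3 and at 43.6, 83.8 and 73.6, with overlapping ages (-0.12 ± 0.34).

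The type VI chains were unevenly spread in the other classes. In endothelial-like cells no UMI of Col6a1, Col6a2 or Col6a3 was found, with the same limit of 5.78 CPM for each. In steroidogenic-like cells Col6a1 was the collagen next to Col3a1, at 216 CPM over the class and at 314, 334 and 96.1 in the 3 pools with at least 5 cells, and Col6a2 and Col6a3 stood at 58.3 and 17.0. Of the 3 chains Col6a1 was highest in the stromal-like, mural-like and steroidogenic-like classes.

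Among the fibril-associated collagens, Col12a1, whose protein bridges type I fibres, was at 104, 53.2 and 12.8 CPM in the 3-month stromal-like pools and at 95.9, 69.8 and 101 in the 15-month pools. The ages overlapped, with 1 low pool at 3 months, and the log2 difference was 1.07 ± 0.56 (interval -0.18 to 2.31). Col26a1, Col9a2, Col14a1 and Col27a1 lie outside the naming rule and were chosen after their values were seen. Col26a1, a short collagen first described in testis and ovary, stood at 51.2 CPM over the stromal-like class and at 0 over the endothelial-like class. Col9a2, a chain of type IX collagen that coats cartilage fibres, stood apart from the rest by its class. In the 23 granulosa-like cells it had 46 UMIs, all in the 3-month pools. The level was 145 CPM over that class (exact Poisson interval 106 to 194), against 1.00 in stromal-like cells and 0 in endothelial-like cells. The interval covers counting error only and not the spread between pools.

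**Figure D2:**
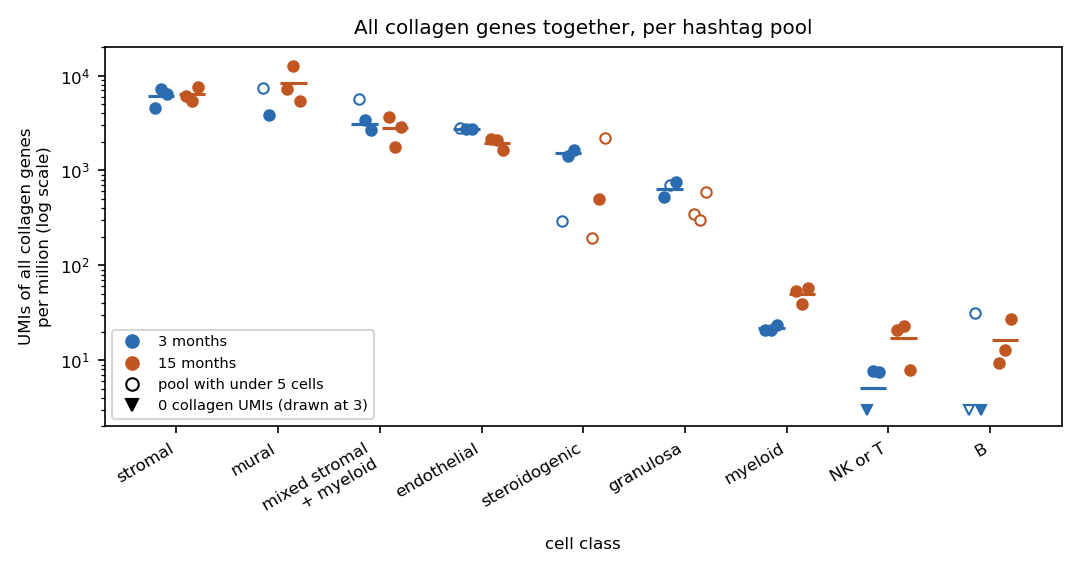
Each point is 1 hashtag pool, the vertical axis is the sum of all 44 collagen genes in CPM on a log scale, lines are means of the pools with at least 5 cells, and open points are pools with fewer. Stromal-like pools overlapped between the ages, and the 3 myeloid-like pools of 15 months (39.1 to 57.6) lay above those of 3 months (20.7 to 23.4).

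Summed over the family, stromal-like cells had 4568, 7293 and 6459 collagen CPM at 3 months and 6093, 5431 and 7520 at 15 months. The ages overlapped, with means of 6107 ± 1396 and 6348 ± 1068 (SD, n = 3 each; exact two-sided permutation p = 0.9). Endothelial-like cells had 2745 and 2761 in the 2 pools entered at 3 months and 2138, 2088 and 1628 at 15 months, with no overlap and an exact permutation p of 0.2. The smallest p that this two-sided test can give is 0.1 for 3 against 3 pools and 0.2 for 2 against 3 pools. Over all kept cells the sums were 486 ± 111 and 427 ± 222 CPM (exact permutation p = 0.7), a value that also moves with the number of stromal-like cells sorted.

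The share of stromal-like cells among kept cells was 2.56 ± 1.30% at 3 months and 1.83 ± 0.979% at 15 months (exact permutation p = 0.5). Endothelial-like cells made 1.13 ± 0.248% and 0.790 ± 0.0206%, and steroidogenic-like cells 0.837 ± 0.285% and 0.264 ± 0.147%. In both of these the highest 15-month pool was below the lowest 3-month pool, with an exact permutation p of 0.1 and 0.25 after adjustment over the 5 classes compared. Only 1 pool of 15 months held 5 or more steroidogenic-like cells, so their collagens were not tested with age. Their family sums in those pools were 1414 and 1622 CPM at 3 months and 502 at 15 months, the last from 6 cells, and the 15-month pool with 1 cell was at 2218. The log2 difference was -1.60 over these pools and -0.19 when every pool with at least 1 cell entered.

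**Figure D3:**
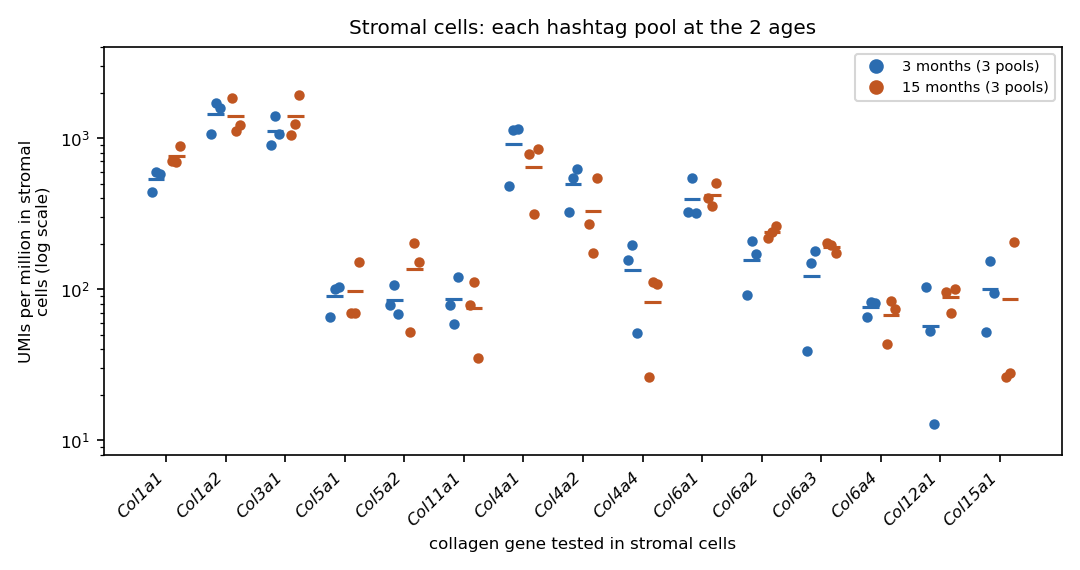
Points are the hashtag pools of stromal-like cells, the vertical axis is CPM on a log scale, and lines are the means of 3 pools for each of the 15 collagen genes tested. Col1a1 and Col6a2 are the genes in which the 15-month points all lie above the 3-month points.

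In stromal-like cells 15 of the 44 collagen genes passed the count filter and none passed an adjusted p of 0.05 (4 of all 2478 genes did, 0.161%). At an unadjusted p under 0.05 only Col1a1 was called in edgeR, as higher (5.57% of all genes were called higher), and DESeq2 also called none after adjustment. The 2 genes with every 15-month pool above every 3-month pool, Col1a1 and Col6a2, compare with 6.17% of all genes, and no collagen had the opposite pattern, which 9.16% of genes had. Of the 15 differences 8 were positive and 7 negative, with a median of 0.15 against -0.00 for all genes. By kind, 4 of 6 fibrillar genes and 3 of 4 beaded-filament genes were positive (medians 0.30 and 0.34), and all 3 type IV genes were negative (median -0.47).

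Markers of other cells also moved within this class. The sum of 8 mural markers, all detected, ran from 182 to 2774 CPM in the 3-month stromal-like pools and from 2101 to 5648 at 15 months. The sum of 10 myeloid markers ran from 312 to 719 and from 364 to 2127, and 36 of the 101 cells carried 4 or more of them. Their part in the collagen differences was not tested, but without those 36 cells none of the collagen genes passed the test either. A separate, finer clustering gave stromal-like cells that were not all the same barcodes as this class. They fell into 63 cells with more Dcn (3846 against 860 CPM) and 38 with more Acta2 (2646 against 213). The first held 18 cells of 3 months and 45 of 15 months and the second 26 and 12. Their collagen sums were 5991 and 6428 CPM, Col4a1 stood at 618 and 1010, and Col1a2 at 1129 and 1589.

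**Figure D4:**
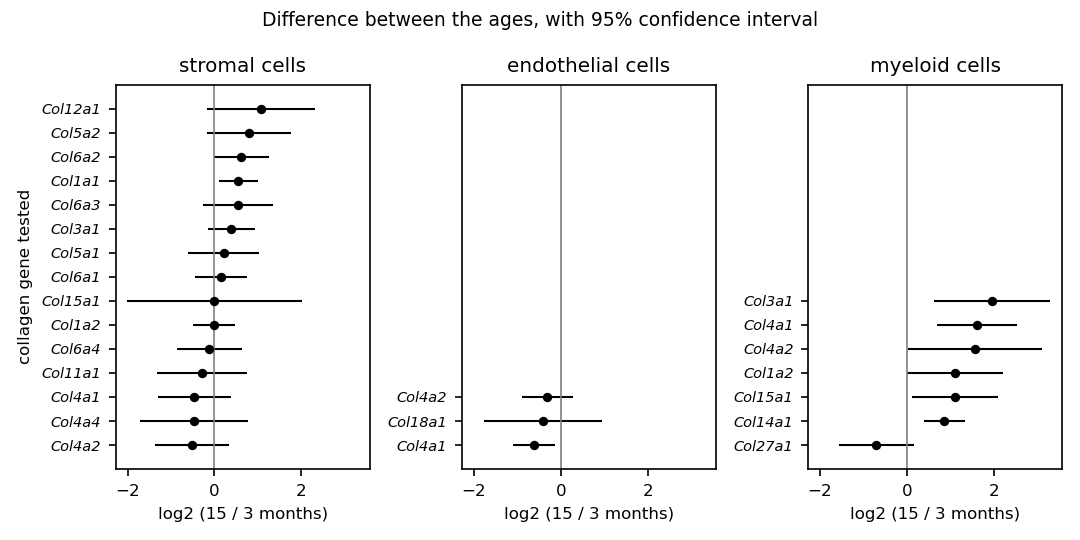
Points are log2 ratios of 15 over 3 months from edgeR for each collagen gene tested in 3 cell classes, and bars are 95% intervals, not adjusted for the number of genes. In stromal-like cells the bars lie on both sides of 0 except for Col1a1, and in myeloid-like cells 6 of 7 points lie above 0.

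In endothelial-like cells 3 collagen genes were tested and none passed (0.293% of 1708 genes did). At an unadjusted p under 0.05 only Col4a1 was called, as lower (3.1% of all genes were called lower). No collagen gene had every 15-month pool above every 3-month pool, which 12.6% of genes had. These pools held 6 to 17 cells. Over all 6 pools of these cells the 10 myeloid markers summed to between 448 and 1780 CPM at 3 months and between 328 and 3092 at 15 months. Of 10 stromal markers 5 were at 0 (Pdgfrb, Dpt, Ogn, Mfap4 and Fbln1), and the sum of the list ran from 38.1 to 224 and from 103 to 174.

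In myeloid-like cells collagen transcripts were rare, and the 15-month pools had the higher values. The family sum was 20.74, 20.996 and 23.35 CPM in the 3-month pools and 54.1, 39.1 and 57.6 in the 15-month pools, a ratio of 2.32 between the means of 21.7 ± 1.44 and 50.3 ± 9.84. The pools did not overlap, and the exact permutation p was 0.1, the smallest possible, or 0.4 after adjustment over 4 tests (3 classes and all kept cells). Of 7 collagen genes tested none passed an adjusted p of 0.05 in edgeR (0.0194% of 10321 genes did). At an unadjusted p under 0.05 there were 6 higher, against 6.92% of all genes, and 5 had every 15-month pool above every 3-month pool, against 23.1%. None had the opposite pattern (4.28% of genes). The count filter lets a gene in on the strength of 1 age, so these counts describe 7 genes and not all 44.

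Col4a1 was at 2.49, 1.15 and 1.76 CPM in the 3-month myeloid-like pools and at 8.90, 4.56 and 5.26 in the 15-month pools. The ages did not overlap, and the log2 difference was 1.61 ± 0.40 (adjusted p = 0.213, edgeR). Col3a1 ran from 0.575 to 0.830 and from 2.14 to 5.59, with a log2 difference of 1.96 ± 0.59. The differences of Col4a2, Col1a2 and Col15a1 were 1.56 ± 0.67, 1.11 ± 0.48 and 1.11 ± 0.43, and Col27a1 had the opposite sign, at -0.70 ± 0.38. When cells were classed barcode by barcode from their markers, the differences turned to -0.50 for Col4a1, -0.53 for Col3a1, -0.54 for Col4a2 and -1.08 for Col1a2.

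Stromal genes other than collagens moved in the same direction in these cells. The 10 stromal markers, all detected and none in 20% of cells, summed to between 2.59 and 7.88 CPM at 3 months and between 20.3 and 40.1 at 15 months. Dcn, the fibril-binding proteoglycan decorin, was at 0.830, 1.15 and 2.24 and at 11.4, 8.79 and 19.4, a log2 difference of 2.85 ± 0.45 (adjusted p = 0.0987). For each 1000 CPM of stromal-like cells, myeloid-like cells had 3.47 of Dcn, 2.48 of Col1a2, 1.66 of Col3a1, 1.84 of Col1a1, 2.61 of Col6a1 and 5.00 of Col4a1. The figure was 21.5 for Col15a1, 77.5 for Col27a1 and 441 for Col14a1. It was also above that of Col4a1 for several collagens with few UMIs, such as Col23a1 (110, from 27 myeloid and 6 stromal UMIs). Col11a2 had 72 myeloid UMIs and 0 stromal ones, but from 4547 against 101 cells, so no such figure can be given for it. In the NK- or T-like and B-like cells together there was 1 UMI of Col1a2, 1 of Col3a1 and 0 of Col4a1.

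The cluster led by cell-cycle genes such as Top2a and Mki67 held 136 myeloid-like cells with a median of 18048 UMIs and higher levels of Dcn (55.7 CPM) and Col1a2 (18.4 CPM) than any of the other 11 myeloid clusters, where they were at most 11.95 and 4.87. This cluster made 0.813 to 2.72% of myeloid-like cells in the 3-month pools and 2.32 to 3.70% in the 15-month pools. Without it the log2 differences were 0.29 for Col1a2, 1.30 for Col4a1, 0.79 for Col14a1 and 1.02 for Col15a1, and the family difference was 0.89. With the barcode rule the family difference was -0.30. The part of stromal RNA in the myeloid-like values was not tested beyond these figures.

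The age difference in stromal-like cells was set against that in myeloid-like cells as an interaction, with pool as a block. Of 23 collagen genes tested 1 was called, Col4a1, against 0.126% of all 10292 genes. Its stromal minus myeloid difference was -2.28 ± 0.47 on the log2 scale (adjusted p = 0.0152, edgeR). Fitted separately, the classes had differences of -0.46 (stromal-like) and 1.61 (myeloid-like). The count filter lets a gene in on the strength of 1 class, and in myeloid-like cells alone only 7 collagen genes passed it. The count of 1 in 23 thus includes genes with few myeloid UMIs and is not a result about the family. The alternative with at least 10 cells in a pool and that without the first 3-month pool were the same fit, and both were counted. The call was kept in 10 of 17 alternatives. It was lost without the second 3-month pool (-1.898, adjusted p = 0.0560), without the third (-2.06, 0.0726) and without the cell-cycle cluster (-1.91, 0.0929). It was also lost with the mixed cells added (-2.16, 0.0638), with the hashtag ratio rule (-1.03, 0.761), with the barcode rule (-0.13, 1.00) and with DESeq2 (-2.19, 1.00).

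**Figure D5:**
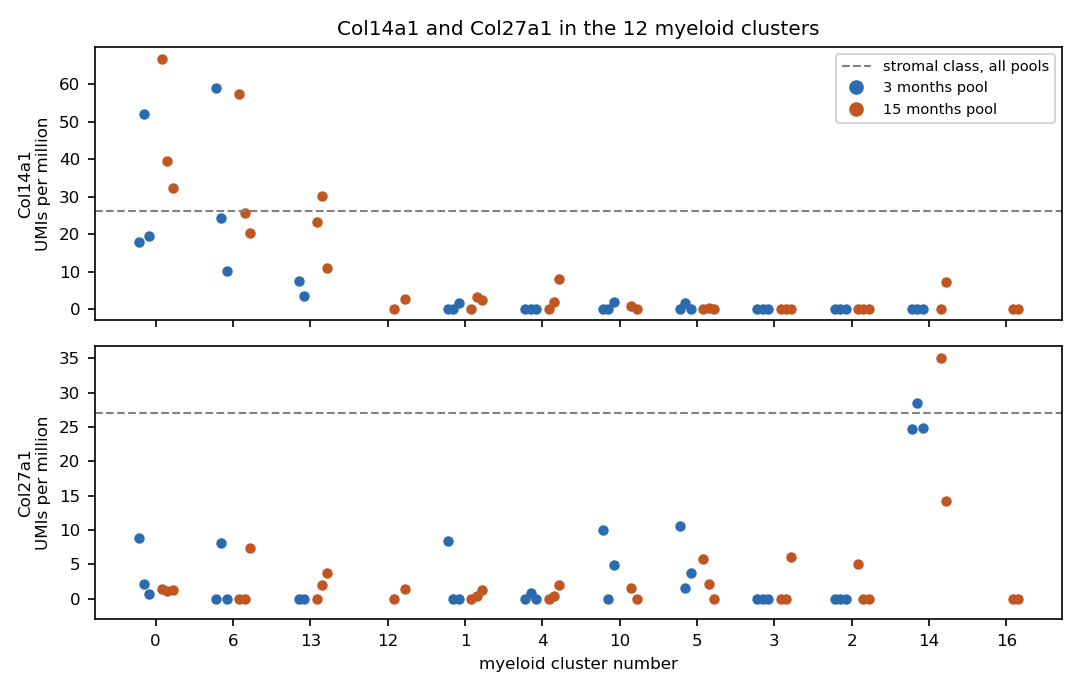
Points are the hashtag pools with at least 5 cells of each of 12 myeloid clusters, the vertical axes are CPM of Col14a1 (top) and Col27a1 (bottom), and the dashed lines are the levels over the stromal-like class (26.1 and 27.1). Col14a1 was high in clusters 0, 6 and 13, and Col27a1 in cluster 14.

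Col14a1 and Col27a1 had myeloid-like values that differed widely between clusters, though the collagens were not ranked by this. Col25a1, with 0.638% of the myeloid-like collagen UMIs, was also uneven. It made 31.0% of the collagen UMIs of cluster 12 and 0.175% of those of cluster 0. Col14a1 (chr15:55307750-55520803), a fibril-associated collagen that binds decorin, had 471 UMIs in myeloid-like cells, and 315 of them fell in cluster 0, the macrophage-like cells led by Ccl12, Vcam1 and C1qa. Its level there was 17.8, 52.1 and 19.6 CPM in the 3-month pools and 66.6, 39.5 and 32.4 in the 15-month pools, against 26.1 over the stromal-like class. The ages overlapped within this cluster. In cluster 6, macrophage-like cells led by Ctsk, Ccl8 and Folr2, it ran from 10.2 to 59.0, and in the cell-cycle cluster it stood at 21.4.

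In the other 9 myeloid clusters Col14a1 was at most 3.28 CPM, and it had 0 UMIs in clusters 2, 3 and 16. Dcn stood at 9.85 in cluster 0 and 11.95 in cluster 6. A UMI of Col14a1 was present in 174 of the 747 cells of cluster 0 (23.3%), and its level was 4.46 in the lymphoid cells. Over all myeloid-like cells it was at 4.98, 8.34 and 6.88 at 3 months and at 16.07, 13.02 and 12.99 at 15 months. The ages did not overlap, with a log2 difference of 0.86 ± 0.20 (adjusted p = 0.213, edgeR). Cluster 0 made 13.01 to 23.02% of myeloid-like cells at 3 months and 12.7 to 18.5% at 15 months.

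Col27a1 (chr4:63214004-63334991), a fibrillar collagen of cartilage and other tissues, had 86 UMIs in myeloid-like cells and 29 of them in the 92 cells of cluster 14. These dendritic-like cells were led by Ccr7, Fscn1 and Ccl22. The level was 24.8, 28.4 and 24.8 CPM in the 3-month pools and 35.1 and 14.3 in the 2 entered 15-month pools, and at most 3.29 over any other myeloid cluster. Cluster 14 made 1.897 to 3.51% of myeloid-like cells at 3 months and 0.536 to 2.23% at 15 months.

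Over all kept cells 23 collagen genes were tested with age and none passed in edgeR (0.0589% of 11882 genes did). At an unadjusted p under 0.05 Col14a1 was higher (8.31% of all genes), and Col9a2 and Col26a1 were lower (8.43%). Col14a1 had every 15-month pool above every 3-month pool (19.3% of genes) and Col9a2 every one below (6.25%). Col9a2 differed by -5.92 ± 1.11 on the log2 scale (adjusted p = 0.124). In granulosa-like cells, the hormone-making cells around the egg, it was at 317, 164 and 113 CPM in the 3-month pools and 0 in each 15-month pool. Those pools held only 5, 4 and 7 such cells at 3 months and 3, 2 and 2 at 15 months, so there was no test within the class, and the numbers of these cells and their Col9a2 level cannot be told apart in the sum.

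Genes that act on collagen were taken from 5 fixed lists. Of 19 genes of folding and modification 8 were tested in stromal-like cells and none passed. The highest were Ppib, a prolyl isomerase, and Serpinh1, the collagen chaperone HSP47. Serpinh1 was at 924, 1047 and 992 CPM at 3 months and 941, 621 and 778 at 15 months, overlapping between ages (-0.29 ± 0.18). In myeloid-like cells, where Ppib was at 503 to 720, Serpinh1 stood at 2.57 over the class. Thus Serpinh1 stood at 2.91 in myeloid-like cells for each 1000 in stromal-like cells, and Ppib at 630.

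Of the genes that trim and cross-link collagen 4 of 12 were tested in stromal-like cells, 3 of 11 receptor genes and 2 of 5 collagenase genes, and none passed. Pcolce, an enhancer of procollagen trimming, ran from 175 to 282 CPM, and Adamts2, the procollagen N-proteinase, from 59.1 to 139. The collagen receptor Ddr2 ran from 39.0 to 81.3 at 3 months and from 78.4 to 119 at 15 months, a log2 difference of 0.88 ± 0.36 (adjusted p = 0.504), and the integrin chain Itgb1 from 286 to 515 with overlapping ages. The collagenases Mmp14 and Mmp2 ran from 95.9 to 364 and from 105 to 208. Of all 2478 genes tested in stromal-like cells 1235 had a positive difference (median -0.00). All 7 fibril-binding genes tested had positive differences, none of which passed (median 0.55). Those with the highest levels, Dcn and Sparc, differed by 0.23 ± 0.32 and 0.31 ± 0.22. The largest difference was that of Prelp, at 1.22 ± 0.34 (adjusted p = 0.296, edgeR). At an unadjusted p under 0.05 there were 2 of the 7 in edgeR, against 225 of all 2478 genes.

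In myeloid-like cells 12 of the folding genes, 1 of the trimming genes, 5 of the receptors, 5 collagenases and 4 fibril-binding genes were tested, and none passed. Mrc1, the mannose receptor, which takes up collagen fragments, ran from 122 to 192 CPM at 3 months and from 159 to 237 at 15 months (0.08 ± 0.20). Mmp14, a membrane collagenase, was at 20.7, 32.8 and 34.9 and at 51.4, 53.0 and 65.8. Its pools did not overlap, and the log2 difference was 0.76 ± 0.20 (adjusted p = 0.213, edgeR). Ctsk, the collagen-degrading cathepsin K, reached 129 in 1 of the 15-month pools and 4.22 to 19.1 in the other 5.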

How the data were processed

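Single-cell RNA-seq of CD45+ CD11b+ ovarian cells was analysed from 2 deposited matrices of raw UMI counts for genes and hashtags, 1 for each age, which the authors had not normalized. The matrix headers name Cell Ranger 4.0.0, and the submitters' processing notes give mm10, FastQC 0.11.4 and Cell Ranger 7.0.0.

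Pools were called with HTODemux (Seurat 5.3.0), and hashtag doublets and negatives were left out. Scrublet marked under 0.5% of barcodes and so was not used, and doublets within a pool stay in. Cells of both libraries were clustered in scanpy 1.11.5 (2000 variable genes without collagens, 30 components, 15 neighbours, leidenalg 0.10.2, resolution 0.6). Immune clusters were named by the marker list with the highest mean score, and cells of the non-immune clusters were clustered again. A sub-cluster of these was named if it had at least 3 markers in at least 20% of its cells. It was called mixed at a median of 6 or more of 10 myeloid markers. These limits were set after the clusters were seen. Within a class, the counts of each pool were added up, pools with under 5 cells were left out, and 15 over 3 months was tested with edgeR 4.0.16 (filterByExpr, TMM, quasi-likelihood, Benjamini-Hochberg over all genes, threshold 0.05). On simulated 4-fold changes of 200 genes it recovered 80.5% in stromal-like, 78% in endothelial-like and 97.5% in myeloid-like cells. The collagen differences tested within these classes were all smaller than 4-fold, and recovery of smaller changes was not simulated. Levels are plain CPM. Single values were compared with exact permutation tests. Floors for a count of 0 are 3 UMIs.

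Per-pool values were given for the 17 collagen genes with a mean of at least 50 CPM in any of 4 classes or past the age test, and for the 2 highest genes of each other list. The members and lists were chosen with earlier results of these data known. Positions are from GENCODE M21 (GRCm38) and sequences from RefSeq (GRCm38.p6).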

Additional observations from a re-analysis of the deposited data

Results flagged for a closer look

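The age difference of Col4a1, a chain of the basement membrane network, differed between stromal-like and myeloid-like cells: the stromal minus myeloid difference was -2.28 ± 0.47 on the log2 scale (interaction term, edgeR adjusted p = 0.0152). It was among the results to look at again because the difference itself passed the test, in 1 of 23 collagen genes, against 0.126% of all 10292 genes. The count filter lets a gene in on the strength of 1 class, and in myeloid-like cells alone only 7 collagen genes passed it. The alternative with at least 10 cells in a pool and that without 3-month pool 1 were the same fit, and both were counted. The call was kept in 10 of 17 alternatives, over which the difference ran from -2.68 to -0.13 and the adjusted p from 0.000197 to 1.00. It was lost with DESeq2, the hashtag ratio rule, the barcode rule and the mixed cells, without 3-month pool 2 or 3, and without the cell-cycle cluster. The myeloid side rests on 174 UMIs of Col4a1 in 4547 cells, of which 49 were in 12 of the 136 cells of the cell-cycle cluster, and the stromal side on 847 UMIs in 101 cells.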

How the results depend on the processing

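The count of collagen genes past the threshold was 0 in stromal-like, endothelial-like and myeloid-like cells and over all kept cells under every alternative run except 3. With the mixed cells added to the stromal-like class it was 1 (Col18a1, -1.75, adjusted p = 0.0496, an alternative chosen after seeing the data), and over all kept cells it was 1 with DESeq2 and 1 with no filter on low counts (Col9a2 in both, adjusted p 0.000245 and 0.0259). The pool numbers did not pair the pools, with correlations of same-numbered pools from -0.13 to 0.15, and a fit with the replicate number as a block also gave 0 in each class and no other call. The count for the stromal against myeloid interaction, 1, ranged from 0 to 2 when 1 pool was left out. It was 0 with DESeq2, the hashtag ratio rule, the barcode rule, the mixed cells and without the cell-cycle cluster, and 2 with no filter.

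The log2 family difference in stromal-like cells, 0.06, turned to -0.48 under a stricter cell filter, -0.091 under the barcode rule, -0.34 with the mixed cells, -0.072 without cells carrying 4 or more myeloid markers and -0.12 with at least 10 cells in a pool, and ran from -0.12 to 0.20 with 1 pool left out. Under the barcode rule the myeloid-like family difference was -0.30, the log2 ratio of the myeloid-like cell share was 0.012, and the family level was 3424 CPM in endothelial-like and 200.4 in myeloid-like cells. With the mixed cells the stromal-like level was 4515. Over all kept cells the family difference ran from -0.54 to 0.18 with 1 pool left out, the last without the second 15-month pool.

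Single genes changed sign as follows, and the cause was not tested. In stromal-like cells the stricter filter gave -0.36 for Col1a1, -0.16 for Col3a1 and -0.21 for Col6a1, the mixed cells -0.18 for Col3a1 and -0.41 for Col6a1, and the ratio rule 0.078 for Col1a2, 0.20 for Col4a1 and 0.12 for Col4a2. Col1a2 was 0.019 at a clustering resolution of 1 and ran from -0.25 to 0.11 with 1 pool left out, and Col6a1 from -0.021 to 0.46. Col18a1 in endothelial-like cells was 0.11 with the ratio rule, 0.37 with the stricter filter, 0.045 with the barcode rule and 0.29 with collagens kept in the clustering, and ran from -0.96 to 1.81 with 1 pool left out. In myeloid-like cells the barcode rule gave -0.53 for Col3a1, -1.08 for Col1a2, -0.50 for Col4a1 and -0.54 for Col4a2. An alternative without scrublet calls was not run, since scrublet marked 1 and 0 barcodes, and DESeq2, the count filter and the block do not apply to summed shares. Depth limits the stromal-like and endothelial-like tests most, with as few as 7 and 6 cells in an entered pool.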

Other observations

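Col11a2, a chain of type XI collagen, was chosen after its values were seen. It had 72 UMIs in the 4547 myeloid-like cells, with the highest level, 8.22 CPM from 11 UMIs, in the neutrophil-like cluster 2. In the lymphoid cells it had 4 UMIs, a level of 1.05. The 101 stromal-like cells had 0 UMIs of Col11a2. In each pool of that class 3 UMIs made at least 11.6 CPM, so the 0 does not show a lower level than in myeloid-like cells.

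In mural-like cells Col4a1 was at 856 CPM in the 1 entered 3-month pool and at 1400.3, 5679 and 1039.7 in the 15-month pools, the highest from 5 cells and 170 UMIs. With 1 such pool at 3 months no test was made.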
